A study of Homo sapiens with 12 samples.

Results

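The genes of MHC class I and of antigen processing described here are HLA-B, HLA-C, HLA-E, B2M, TAP1, TAP2, TAPBP, PSMB8 and PSMB9. They were taken by name from a table of 57500 genes, each name occurred on 1 gene identifier, and all 9 were among the 27029 genes with enough counts to be tested. Total RNA was sequenced from HCC1806 and MDA-MB-468, established human cell lines from triple-negative breast cancer, a tumour class defined by lack of estrogen receptor, progesterone receptor and HER2 amplification. In each line CRISPR-Cas9 with the guide sgPACT-2 was directed against PACT, a protein that binds double-stranded RNA and is encoded by PRKRA. The control guide was sgC1 in HCC1806 and sgNTA in MDA-MB-468, which makes 4 groups of 3 libraries. The labels name 1 guide against PACT and do not say whether the cells of a group were 1 clone or a pool. They also do not say that the replicates came from separate cultures, so that the p-values measure the spread between these libraries, which may be technical.

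Class I molecules show peptides from inside the cell to CD8+ T cells. Proteasomes cut proteins to peptides, the TAP transporter carries the peptides into the endoplasmic reticulum, and tapasin holds the transporter and an empty class I molecule together until a peptide is bound. Most of these genes lie in the major histocompatibility complex on chromosome 6, and interferon-driven factors, NF-kappaB and the transactivator NLRC5 are known regulators of their promoters.

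The identifiers and places of the genes are given on GRCh38 in the GENCODE 29 annotation. The classical heavy chains are HLA-B (ENSG00000234745, chr6:31269491-31357188, minus strand) and HLA-C (ENSG00000204525, chr6:31268749-31272130, minus strand), and HLA-E (ENSG00000204592, chr6:30489467-30494205, plus strand) is the non-classical heavy chain that natural killer cells read through NKG2A. B2M (ENSG00000166710, chr15:44711487-44718877, plus strand) encodes beta-2-microglobulin, the light chain of all of them. TAP1 (ENSG00000168394, chr6:32845209-32853978, minus strand) and TAP2 (ENSG00000204267, chr6:32821833-32838780, minus strand) encode the subunits of the transporter, and TAPBP (ENSG00000231925, chr6:33299694-33314387, minus strand) encodes tapasin. PSMB8 (ENSG00000204264, chr6:32840717-32844703, minus strand) and PSMB9 (ENSG00000240065, chr6:32844136-32859585, plus strand) encode catalytic subunits of the immunoproteasome, in which they replace PSMB5 and PSMB6.

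Regulators described further on, among them subunits of NF-kappaB, act through short sites of the kind marked below. Whether they act on the members in these cells was not tested. The promoters of 6 members are shown, those with marked matches upstream of their first start site. They are RefSeq sequences on GRCh38.p14, each read 5′ to 3′ on the strand of its gene and ending before the start site. Capitals mark matches on either strand to the kappaB consensus, to the interferon response core GAANNGAAA and to a longer core, GAAA and GAAA around any 2 bases. The longer core was added after the promoters had been read.
HLA-B, chr6:31357224-31357369, minus strand: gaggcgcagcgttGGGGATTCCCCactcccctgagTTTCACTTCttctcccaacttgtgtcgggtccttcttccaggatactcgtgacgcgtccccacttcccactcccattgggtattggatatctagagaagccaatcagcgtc
HLA-C, chr6:31272137-31272278, minus strand: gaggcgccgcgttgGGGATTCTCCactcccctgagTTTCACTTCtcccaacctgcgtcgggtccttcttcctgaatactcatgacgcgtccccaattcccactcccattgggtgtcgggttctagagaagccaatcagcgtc
B2M, chr15:44711367-44711477, plus strand: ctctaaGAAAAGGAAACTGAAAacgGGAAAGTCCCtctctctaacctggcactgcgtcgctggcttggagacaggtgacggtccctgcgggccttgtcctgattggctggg
TAP1, chr6:32853705-32853794, minus strand: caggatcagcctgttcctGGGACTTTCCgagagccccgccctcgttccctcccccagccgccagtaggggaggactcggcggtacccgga
TAP2, chr6:32838760-32838819, minus strand: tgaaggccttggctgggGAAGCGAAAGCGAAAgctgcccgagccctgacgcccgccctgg
TAPBP, chr6:33314079-33314148, minus strand: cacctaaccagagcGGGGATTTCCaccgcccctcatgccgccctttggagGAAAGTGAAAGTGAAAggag

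The promoters of HLA-B and HLA-C carry a kappaB match with an interferon response core downstream of it, and in B2M the matches stand in the opposite order. In TAP1 the interferon matches lie upstream of the stretch shown. In TAP2 the matches to both interferon response cores overlap, and no kappaB match was found in its window of 250 bases before to 50 after the start site. Promoter entries of that length were matched for 8 members, and HLA-E had none. PSMB8 and PSMB9 had entries but are not shown above. In PSMB9 no kappaB or interferon match was found. PSMB8 had no kappaB match, and its interferon matches lay only at a start site downstream of its first. Some genes, TAP1 and PSMB8 among them, have more than 1 start site in the table, and a gene was counted if any of its entries held the motif. The kappaB consensus was matched in 5 of the 8 members and in 13.3% of all 27305 genes of the table. GAANNGAAA was matched in 4 of 8 members against 9.31% of all genes. The longer core was matched in 5 of 8 against 4.38%, a description only, since it was chosen after these promoters had been read. TGACG, a core of cyclic AMP response elements, was found in 6 of 8 members against 28.4%, and GATTGG, the reverse complement of a CCAAT box, in 3 of 8 against 17.9%. The motifs overlap in part, and a match describes the letters only.

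The libraries held 18640633 to 44790741 counts, and the members took 0.143% to 0.274% of them. PRKRA, the targeted gene, stood at 72.1 to 82.6 CPM (counts scaled to library size by the TMM method of edgeR) with sgC1 and at 36.1 to 37.5 CPM with sgPACT-2 in HCC1806. It fell by 1.07 on the log2 scale there (SE 0.102, edgeR adjusted p = 1.699e-05). In MDA-MB-468 it stood at 41.1 to 46.9 CPM with sgNTA and 35.5 to 41.6 CPM with sgPACT-2, ranges that overlap, with a log2 difference of -0.20 (SE 0.101, edgeR adjusted p = 0.958). PACT protein was not measured here. The 7 epithelial markers summed to 3564 to 4034 CPM with sgC1 and 2842 to 3340 CPM with sgPACT-2 in HCC1806, and to 12580 to 14500 CPM in MDA-MB-468. Most of the latter was EGFR, at 8273 CPM with sgNTA and 9489 CPM with sgPACT-2, against 1113 CPM with sgC1. In controls the 4 keratins also averaged higher in MDA-MB-468, and EPCAM and CDH1 lower. Within HCC1806 KRT5 averaged 767 CPM with sgC1 and 406 CPM with sgPACT-2, and only KRT7 averaged higher with sgPACT-2. PGR, the progesterone receptor gene, averaged at most 0.160 CPM in any group. ESR1, the estrogen receptor gene, averaged 20.9 CPM in HCC1806 controls and 6.67 CPM in MDA-MB-468 controls. The 7 leukocyte markers summed to 3.77 to 6.55 CPM in HCC1806 and to 77.3 to 106.8 CPM in MDA-MB-468. Nearly all of the latter was CD14, at 98.7 CPM with sgNTA and 78.6 CPM with sgPACT-2, while PTPRC, the pan-leukocyte marker, averaged at most 0.335 CPM in any group. The 6 fibroblast and endothelial markers summed to 30.5 to 44.6 CPM with sgC1, 39.2 to 54.2 CPM with sgPACT-2 in HCC1806, and 19.3 to 24.5 CPM in MDA-MB-468. The part of these markers in the results was not tested, and in bulk RNA fewer cells of a type and less RNA per cell cannot be told apart.

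The members were expressed in every library of both lines. On a scale that divides CPM by the length of the main transcript in kilobases, the sgC1 libraries of HCC1806 had B2M first at 434 ± 54.8 (SD, n = 3), then TAPBP at 268 ± 7.13, HLA-C at 219 ± 19.2 and HLA-B at 167 ± 27.1. HLA-E followed at 82.4 ± 6.63, TAP2 at 39.2 ± 4.60, TAP1 at 39.0 ± 4.35, PSMB9 at 21.8 ± 1.81 and PSMB8 at 19.97 ± 1.45. Of these neighbours, TAP1 with TAP2 and PSMB8 with PSMB9 overlapped. In the sgNTA libraries of MDA-MB-468 the order on the same scale was TAPBP at 301 ± 2.62, HLA-C at 202 ± 5.28, B2M at 164 ± 7.87, HLA-B at 84.6 ± 3.02 and HLA-E at 69.0 ± 3.26. The lower end held PSMB8 at 35.9 ± 0.256, TAP1 at 29.2 ± 2.35, TAP2 at 19.2 ± 0.894 and PSMB9 at 15.7 ± 1.32, and no neighbours overlapped. This order depends on the length used, and for TAP2 on how reads shared with an overlapping gene model were counted, which is not given. With all exons of a gene merged, HLA-C at 134 stood above B2M at 122 in HCC1806 controls.

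Most members differed between the control libraries of the lines, a contrast in which cell line and control guide cannot be told apart. At a Benjamini-Hochberg adjusted p under 0.05 in edgeR, 7 of 9 members differed, beside 74.2% of all tested genes (34.2% higher, 40.1% lower). Among tested genes that averaged 500 counts or more the figure was 83.7%. MDA-MB-468 was lower for B2M (log2 difference -1.40, SE 0.125, edgeR adjusted p = 1.767e-08), for TAP2 (-1.03, SE 0.129) and for HLA-B (-0.98, SE 0.150). It was also lower for PSMB9 (-0.48, SE 0.151), TAP1 (-0.42, SE 0.105) and HLA-E (-0.26, SE 0.0968, edgeR adjusted p = 0.0244). PSMB8 was the 1 member that was higher in MDA-MB-468, by 0.84 (SE 0.123, edgeR adjusted p = 8.669e-06). HLA-C (-0.12, 95% interval -0.32 to 0.08) and TAPBP (0.17, interval -0.03 to 0.36) did not pass the test. The median over the members was -0.42 and that over all tested genes -0.26. Over tested genes that averaged 500 counts or more it was 0.53, with 5308 called higher and 2241 lower in MDA-MB-468. With library size as the only scaling the medians of the members and of all tested genes were -0.67 and -0.51. The HLA-E call was lost without sgC1 replicate 1 (-0.22), without sgC1 replicate 2 (-0.18), and without sgNTA replicate 1 (-0.21) or 3 (-0.27). The PSMB9 call was lost without sgC1 replicate 2 (-0.38, edgeR adjusted p = 0.0552), and the TAPBP difference passed without HCC1806 sgPACT-2 replicate 1 (0.19) or 3 (0.19).

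**Figure D1:**
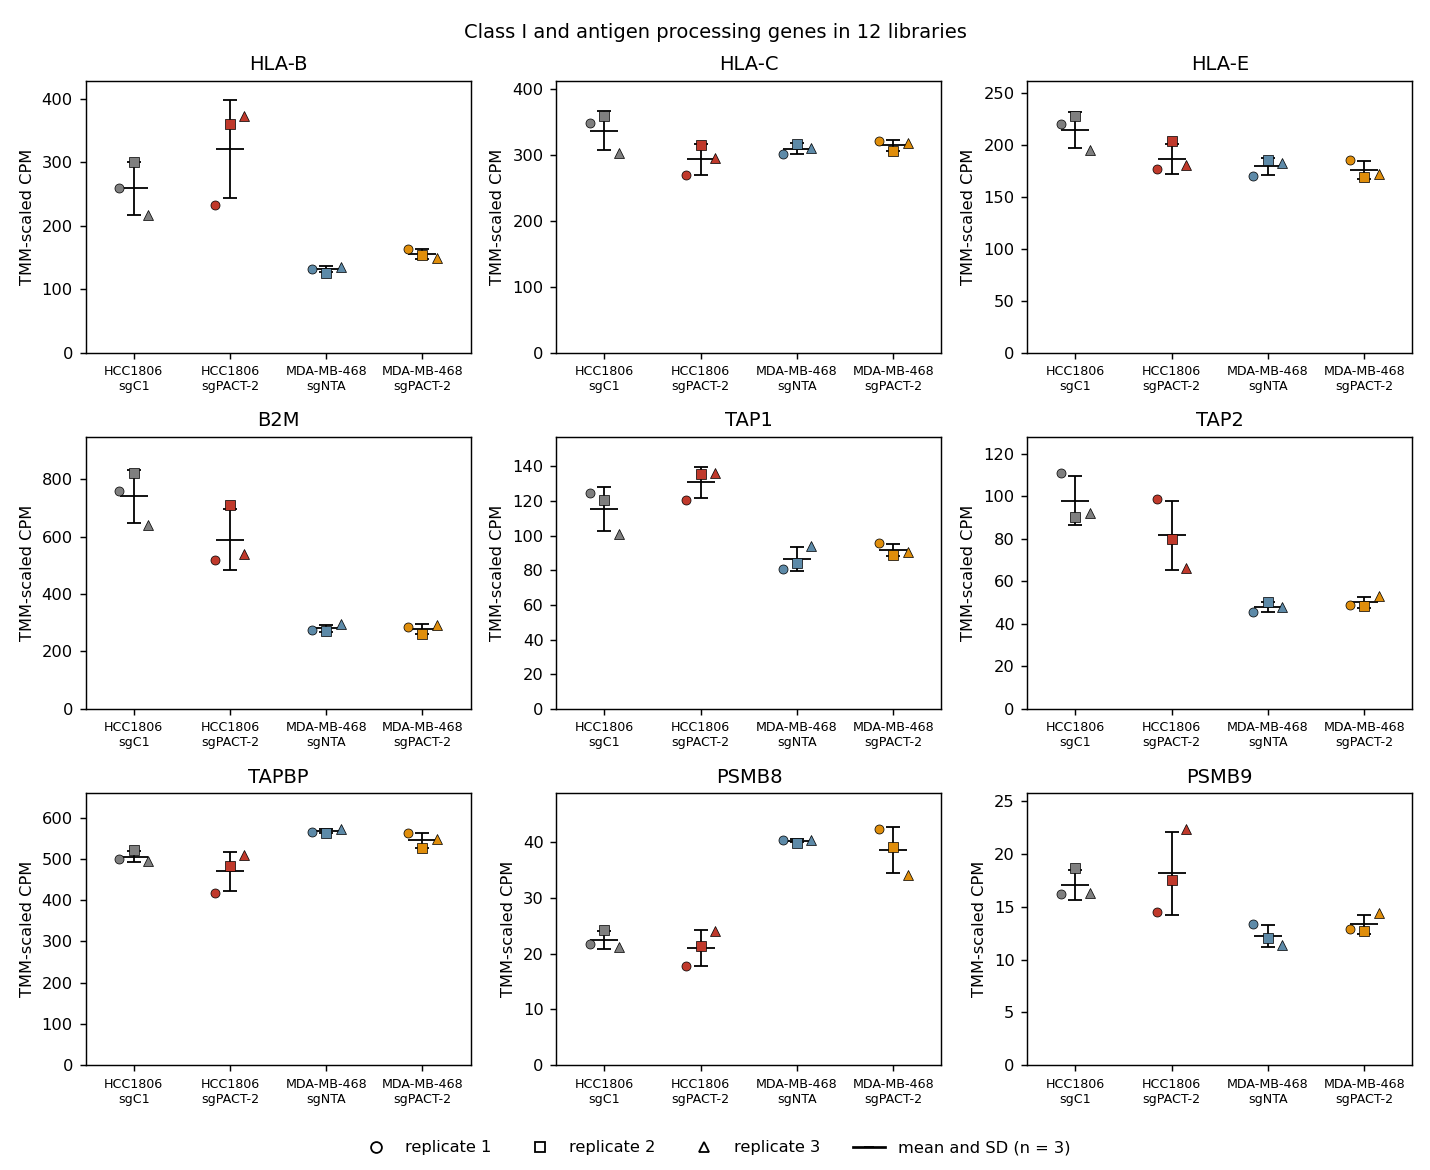
CPM (TMM-scaled) of the 9 members on the vertical axes, from 0, in each of the 12 libraries, by group on the horizontal axes; markers show the replicate number, and the bar with its error shows mean and SD over 3 libraries. B2M, TAP2 and HLA-B sit lower in both MDA-MB-468 groups, PSMB8 sits higher there, and in HCC1806 control and PACT-depleted libraries overlap for all 9 genes.

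The question put to the depleted libraries was whether the class I pathway differs when PACT is targeted. With edgeR's quasi-likelihood test adjusted over all tested genes, 0 of 9 members passed in HCC1806, and MDA-MB-468 likewise gave 0 of 9. Over all tested genes 2.49% were called in HCC1806 (672 genes) and 0.17% in MDA-MB-468 (46 genes). At an unadjusted p under 0.05, 1 member stood out in HCC1806 (B2M) and 0 in MDA-MB-468, beside 3909 (14.5%) and 1424 (5.27%) of all genes. On the log2 scale, the 95% intervals of the members in this fit lay between -0.59 and 0.63 in HCC1806. In MDA-MB-468 they lay between -0.32 and 0.56. As fold changes these bounds are 0.666 and 1.54 in HCC1806, and 0.803 and 1.48 in MDA-MB-468. The bounds rest on 1 estimate of the spread shared by both lines. With HCC1806 fitted alone the SE of HLA-B was 0.192 (0.149 in the shared fit) and that of B2M 0.157 (0.123). Larger fold changes are therefore not excluded in HCC1806. With MDA-MB-468 fitted alone the SE of HLA-B was smaller, at 0.0657. DESeq2, another count model, also called 0 members in either line, with an unadjusted p under 0.05 for 3 members in HCC1806 (HLA-C, HLA-E and B2M; 14.4% of all genes) and 0 in MDA-MB-468. With the replicate number as a block, 1 member was called in HCC1806 (B2M), beside 1947 of all genes. There 5 members had an unadjusted p under 0.05 (HLA-B, higher, and HLA-C, HLA-E, B2M and TAP2, lower), beside 18.8% of all genes. By replicate number, HLA-C, HLA-E, B2M and TAP2 were lower in 3 of 3 HCC1806 pairs. The other members had pairs in both directions, and HLA-B was higher in 2 of 3. The share of all tested genes with 3 pairs in the same direction was not counted, so these pairs are a description only. In MDA-MB-468 the block gave 0 members at either threshold.

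Depletion in HCC1806 gave a median log2 difference over the members of -0.11, beside 0.01 over all tested genes. Over tested genes that averaged 500 counts or more it was -0.06, with 39.2% positive and 5.6% called. The medians for MDA-MB-468 were 0.02 over the members, -0.01 over all tested genes and -0.02 over genes with 500 counts or more. In HCC1806, 3 members were positive and 6 negative, and with library size as the only scaling 5 were positive and the members' median was 0.02, while the median of all genes moved to 0.13. The same scaling turned the 314 higher and 358 lower calls over all genes in HCC1806 into 647 higher and 146 lower.

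**Figure D2:**
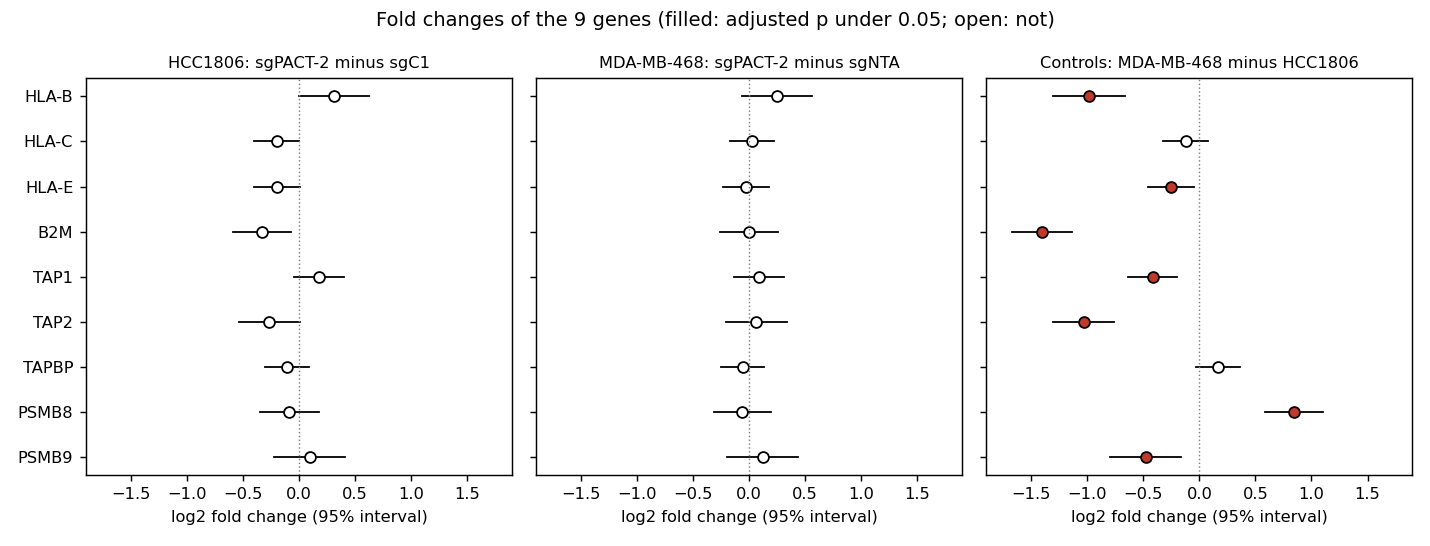
Log2 fold change with its 95% interval (edgeR, horizontal axis) for each of the 9 members in 3 contrasts: depletion in HCC1806, depletion in MDA-MB-468, and MDA-MB-468 controls against HCC1806 controls. The depletion intervals include 0 for all members except B2M in HCC1806, and the control contrast reaches -1.40 for B2M.

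HLA-B leaned higher in depleted libraries of both lines without passing the test. Its level was 259, 301 and 217 CPM in sgC1 replicates 1 to 3 of HCC1806 and 232, 359 and 372 CPM in sgPACT-2 replicates 1 to 3. Depleted replicate 1 lay inside the control range and replicates 2 and 3 above it, giving a log2 difference of 0.31 (SE 0.149, 95% interval -0.00 to 0.63, edgeR adjusted p = 0.350). Without that depleted replicate 1 the difference was 0.50 and passed (edgeR adjusted p = 0.00801). In MDA-MB-468 HLA-B stood at 132, 126 and 135 CPM with sgNTA and at 164, 153 and 149 CPM with sgPACT-2. Here the groups did not overlap, as for 13.1% of all tested genes, and the log2 difference was 0.25 (SE 0.149, 95% interval -0.07 to 0.56, edgeR adjusted p = 1). When MDA-MB-468 was fitted alone, the difference of 0.26 passed (edgeR adjusted p = 0.0333). The difference between the lines in this effect was -0.07 (95% interval -0.51 to 0.38).

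HLA-C, the other classical heavy chain among the members, did not share the direction of HLA-B in HCC1806. It stood at 349, 358 and 303 CPM with sgC1 and at 269, 316 and 296 CPM with sgPACT-2. The groups overlapped, and the log2 difference was -0.20 (SE 0.0949, 95% interval -0.40 to 0.00, edgeR adjusted p = 0.352). In MDA-MB-468 it was nearly level, at 301, 317 and 311 CPM in controls and 321, 306 and 319 CPM in depleted libraries, a difference of 0.02 (95% interval -0.17 to 0.22).

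HLA-E, whose own surface display uses peptides from other class I leader sequences, gave values like those of HLA-C. In HCC1806 it stood at 221, 228 and 195 CPM with sgC1 and at 177, 204 and 180.4 CPM with sgPACT-2. The log2 difference was -0.20 (SE 0.0969, edgeR adjusted p = 0.366), and depleted replicate 2 lay inside the control range. In MDA-MB-468 the groups overlapped at 170.0 to 186 CPM in controls and 169.8 to 186 CPM in depleted libraries.

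The share of HLA-B in the summed CPM of HLA-B, HLA-C and HLA-E differed between depleted and control libraries in each line; this ratio was formed after the values had been seen and carries no test. In HCC1806 it was 31.3%, 33.9% and 30.3% with sgC1 and 34.2%, 40.9% and 43.9% with sgPACT-2. In MDA-MB-468 it was 21.8%, 20.01% and 21.5% with sgNTA and 24.4%, 24.4% and 23.2% with sgPACT-2. In neither line did the groups overlap, and the depleted means were higher by 7.84 percentage points (HCC1806) and 2.90 (MDA-MB-468). Leaving out 1 library at a time moved these differences between 5.74 and 10.6 points and between 2.35 and 3.30 points. The share of HLA-C was correspondingly lower in HCC1806, at 36.8% ± 2.54 against 41.6% ± 1.08 (SD, n = 3 each). A shared scaling cancels in such a share, and reads that map to several HLA genes do not.

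B2M was the member with the smallest p in HCC1806, and it lay lower in depleted libraries. It stood at 759, 823 and 639 CPM with sgC1 and at 517, 712 and 541 CPM with sgPACT-2. Depleted replicate 2 lay above control replicate 3, so the groups overlapped, and the log2 difference was -0.33 (SE 0.123, 95% interval -0.59 to -0.07, edgeR adjusted p = 0.199). Compared by replicate number, depleted minus control was -0.55, -0.21 and -0.24 on the log2 scale, lower in 3 of 3 pairs. With the replicate number as a block the difference of -0.33 passed (edgeR adjusted p = 0.0171), the only member to do so in either line. It passed as well without depleted replicate 2 (-0.49, edgeR adjusted p = 0.0484). In MDA-MB-468 B2M stood at 276, 269 and 295 CPM with sgNTA and at 286, 259.6 and 293 CPM with sgPACT-2, with a difference of -0.00 (95% interval -0.26 to 0.26). The difference between the lines did not pass (0.32, 95% interval -0.04 to 0.69, edgeR adjusted p = 0.642).

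Light chain over heavy chain RNA was compared per kilobase of transcript, B2M over the sum of HLA-B, HLA-C and HLA-E, again as a description. The ratio was 0.929, 0.937 and 0.909 in HCC1806 controls and 0.771, 0.809 and 0.632 in depleted libraries, which did not overlap. Depleted libraries were lower by 0.188 on average, and by 0.135 to 0.224 when 1 library was left out. In MDA-MB-468 the ratio averaged 0.462 ± 0.0211 with sgNTA and 0.439 ± 0.0228 with sgPACT-2 (SD, n = 3), and the groups overlapped.

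The transporter subunits leaned in opposite directions in HCC1806. TAP1, which pairs with TAP2 to form the peptide channel, stood at 125, 121 and 101 CPM with sgC1 and 121, 135 and 136 CPM with sgPACT-2, a log2 difference of 0.18 (SE 0.105, edgeR adjusted p = 0.481). TAP2 stood at 111, 90.4 and 92.3 CPM with sgC1 and 98.6, 80.1 and 66.3 CPM with sgPACT-2, a log2 difference of -0.26 (SE 0.128, edgeR adjusted p = 0.359). For each subunit at least 1 depleted library lay inside the control range. Without depleted replicate 1 the TAP2 difference was -0.42 and passed (edgeR adjusted p = 0.0274).

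TAP1 over TAP2 per kilobase was 0.948, 1.13 and 0.922 in HCC1806 controls and 1.03, 1.43 and 1.74 in depleted libraries, of which replicate 1 lay inside the control range. The level of this ratio is uncertain, since most of the main TAP2 transcript is shared with an overlapping gene model, as described further on. In MDA-MB-468 the same ratio averaged 1.52 ± 0.121 with sgNTA and 1.55 ± 0.0988 with sgPACT-2 (SD, n = 3). TAP1 there stood at 80.9 to 94.3 CPM in controls and 89.1 to 95.7 CPM in depleted libraries, and TAP2 at 45.7 to 50.1 CPM and 48.3 to 52.9 CPM. Both pairs of ranges overlapped, with log2 differences of 0.09 (95% interval -0.13 to 0.31) and 0.06 (95% interval -0.21 to 0.33).

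TAPBP, the tapasin gene, lay slightly lower in depleted libraries of MDA-MB-468. It stood at 566, 564 and 573 CPM with sgNTA and at 562, 526 and 549 CPM with sgPACT-2. These groups did not overlap, yet the log2 difference was only -0.06 (SE 0.0916, 95% interval -0.25 to 0.14, edgeR adjusted p = 1). In HCC1806 TAPBP stood at 501, 521 and 495 CPM with sgC1 and 417, 483 and 510.3 CPM with sgPACT-2, which overlapped, with a difference of -0.11 (95% interval -0.30 to 0.09) that was 0.02 when only library size was scaled. HLA-B and TAPBP were thus the 2 members whose groups were separate in MDA-MB-468, one higher and one lower, beside 13.1% of all tested genes. In HCC1806 0 members were separate, beside 16.7% of all tested genes.

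The immunoproteasome subunits were the lowest members per kilobase in HCC1806, and their depletion differences lay between -0.09 and 0.12 on the log2 scale over both lines. PSMB8 stood at 21.8, 24.3 and 21.3 CPM in HCC1806 controls and 17.7, 21.3 and 24.1 CPM in depleted libraries, with a log2 difference of -0.09 (95% interval -0.35 to 0.18, and 0.04 with library size only). PSMB9 stood at 16.2, 18.7 and 16.3 CPM and at 14.6, 17.6 and 22.4 CPM, with a difference of 0.09 (95% interval -0.22 to 0.41). For both genes depleted replicate 1 was the lowest and depleted replicate 3 was at or above most controls. In MDA-MB-468, PSMB8 stood at 40.0 to 40.5 CPM in controls and 34.2 to 42.4 CPM in depleted libraries, and PSMB9 at 11.4 to 13.4 CPM and 12.8 to 14.4 CPM. The depletion differences there were -0.06 (95% interval -0.32 to 0.19) and 0.12 (95% interval -0.19 to 0.44).

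Set against the constitutive subunit that it replaces, per kilobase, PSMB9 made up 25.9%, 31.6% and 25.6% of PSMB9 plus PSMB6 in HCC1806 controls and 21.8%, 33.2% and 43.2% in depleted libraries. PSMB8 made up 34.2%, 41.1% and 35.2% of PSMB8 plus PSMB5 in controls and 28.3%, 40.6% and 48.0% in depleted libraries. In both ratios, depleted replicate 1 lay below all controls and depleted replicate 3 above all controls. PSMB10, the remaining immunoproteasome catalytic subunit, made up 21.5% ± 4.25 of PSMB10 plus PSMB7 with sgC1 and 24.8% ± 8.74 with sgPACT-2 (SD, n = 3). In MDA-MB-468 the PSMB8 share was 40.0% ± 0.351 with sgNTA and 40.9% ± 2.57 with sgPACT-2.

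**Figure D3:**
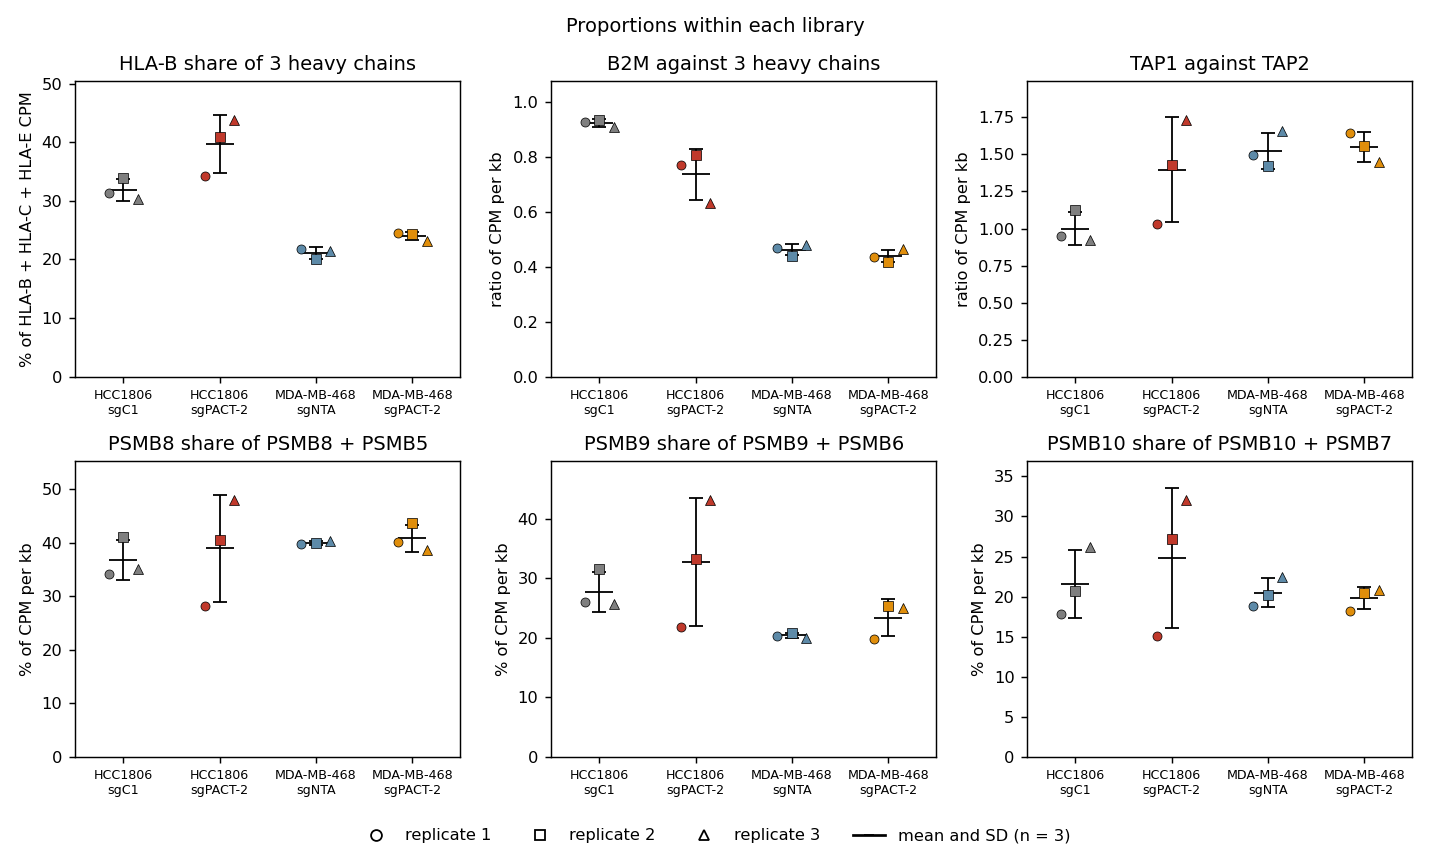
Descriptive ratios in each of the 12 libraries by group: HLA-B share of HLA-B, HLA-C and HLA-E (percent of CPM), B2M over the heavy chains and TAP1 over TAP2 (both per kilobase), and the share of each immunoproteasome subunit with its constitutive partner (percent, per kilobase). The HLA-B share separates depleted from control libraries in both lines, at 34.2% and above against 33.9% and below in HCC1806, and the subunit shares spread most among the depleted HCC1806 libraries.

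The spread among depleted HCC1806 libraries ran through most members. After log2 CPM was centred within each line, the mean over the members was lowest in HCC1806 sgPACT-2 replicate 1 (-0.19) and highest in sgC1 replicate 2 (0.13), and in MDA-MB-468 it stayed between -0.04 and 0.06. That depleted replicate had the fewest counts of all libraries (18640633), and its part in the results was not tested beyond leaving it out. Without it, HLA-B and TAP2 passed, in opposite directions, and the calls over all genes in HCC1806 numbered 1792. The effects of depletion were also compared between the lines directly: 0 of 9 members passed this interaction test, beside 0.122% of all tested genes (33 genes), and DESeq2 called 0 as well. At an unadjusted p under 0.05, 0 members and 2269 of all genes (8.39%) stood out in the interaction.

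The genes around the members in the pathway were taken as lists. Of 12 further class I heavy chain and class I-like genes, 0 passed in each of the lines. Their medians were -0.21 (HCC1806) and 0.04 (MDA-MB-468). The gene with the smallest adjusted p in HCC1806 was HFE, which encodes a class I-like regulator of iron uptake. It stood at 51.1, 50.2 and 47.3 CPM with sgC1 and 29.2, 35.8 and 40.0 CPM with sgPACT-2, a difference of -0.50 (SE 0.135, edgeR adjusted p = 0.0617). With the replicate block, without a filter on low counts, with DESeq2, and without HCC1806 sgPACT-2 replicate 3, HFE and MR1, a class I-like gene that presents vitamin B metabolites, both passed. In these fits, in the same order, the calls over all genes in HCC1806 were 702 higher and 1245 lower, 577 and 774, 489 and 756, and 260 and 236. Without depleted replicate 1, HLA-F, a non-classical heavy chain, was the 1 gene of this list that passed, beside 597 higher and 1195 lower calls over all genes. In MDA-MB-468 the smallest adjusted p belonged to FCGRT, the neonatal Fc receptor, at no more than 0.451 CPM in any library (edgeR adjusted p = 0.912).

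Among 10 genes of peptide trimming and loading, 1 rose and 0 fell in HCC1806, and 0 passed in MDA-MB-468, beside 2.49% and 0.17% of all tested genes. UGGT1, the glucosyltransferase that returns unfinished glycoproteins, class I molecules included, to the chaperone cycle, stood at 62.8, 54.9 and 60.7 CPM with sgC1 and 93.5, 78.4 and 79.5 CPM with sgPACT-2. The groups were separate, and UGGT1 rose by 0.49 on the log2 scale (SE 0.101, edgeR adjusted p = 0.0158); it missed the threshold without sgC1 replicate 2 (0.44, edgeR adjusted p = 0.0633) and with HCC1806 fitted alone (0.51, edgeR adjusted p = 0.144). The median of the list was -0.15 in HCC1806. PDIA3, a protein disulfide isomerase of the peptide-loading complex, stood at 1987, 1533 and 1515 CPM and at 1406, 1234 and 1101 CPM, a difference of -0.43 (edgeR adjusted p = 0.0617). With the replicate block 4 genes passed, UGGT1 higher and CALR, CANX and PDIA3, lectin chaperones and their partner, lower. The same 4 passed without HCC1806 sgPACT-2 replicate 1 and without a filter on low counts. These fits also called many genes elsewhere. Over all genes the block gave 702 higher and 1245 lower, leaving out that replicate 597 and 1195, and no filter 577 and 774. DESeq2 called 3 of the 4 (UGGT1, CALR and PDIA3), beside 489 higher and 756 lower over all genes. PDIA3 also passed beside UGGT1 without sgC1 replicate 3, where 222 genes were called higher and 325 lower. In MDA-MB-468 the smallest adjusted p was that of ERAP2, an aminopeptidase that trims peptides, at 3.01, 3.92 and 4.39 CPM with sgNTA and 5.13, 5.11 and 5.51 CPM with sgPACT-2 (edgeR adjusted p = 0.821).

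Of 8 proteasome subunit and activator genes, 0 passed in either line, with medians of -0.17 and -0.05. PSME1, a subunit of the PA28 activator, had the smallest adjusted p in HCC1806, at 73.1, 66.6 and 63.4 CPM with sgC1 and 47.3, 55.9 and 59.3 CPM with sgPACT-2 (log2 difference -0.32, edgeR adjusted p = 0.144). Without depleted replicate 1, which was the highest of its group for PSMB5 at 51.8 CPM, the constitutive subunits PSMB5, PSMB6 and PSMB7 and the assembly factor POMP passed. Over all genes that fit called 597 higher and 1195 lower. In MDA-MB-468 every adjusted p was 1, and PSMB5 had the smallest unadjusted p, with a difference of -0.11. Of 7 tested class II genes, 0 passed in either line. CD74, the invariant chain, had the smallest adjusted p in MDA-MB-468, at 0.557, 0.730 and 1.02 CPM with sgNTA and 0.257, 0.541 and 0.246 CPM with sgPACT-2 (edgeR adjusted p = 0.262, past the threshold without a filter on low counts), a level under the 101 ± 9.26 CPM of HCC1806 controls. HLA-DMA, which helps load class II molecules, had it in HCC1806 (-0.52, edgeR adjusted p = 0.390).

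The known regulators of class I transcription were the list in which calls were made in both lines. Of 18 genes, 3 rose and 0 fell in HCC1806 and 2 rose and 0 fell in MDA-MB-468, with list medians of 0.15 and 0.05. Over all tested genes 2.49% were called in HCC1806 and 0.17% in MDA-MB-468. All the called genes of the list encode subunits of NF-kappaB. The list, with these subunits on it, was chosen with earlier results of these data known. RELB, a partner of the non-canonical branch, stood at 8.09, 7.30 and 7.71 CPM with sgC1 and 36.9, 36.6 and 41.2 CPM with sgPACT-2 in HCC1806. In MDA-MB-468 it stood at 27.2, 21.9 and 21.6 CPM with sgNTA and 55.8, 44.6 and 47.9 CPM with sgPACT-2. The groups were far apart in both lines, and RELB rose by 2.31 (SE 0.132, edgeR adjusted p = 3.186e-08) and by 1.07 (SE 0.121, edgeR adjusted p = 3.952e-04).

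NFKB2, the precursor of p52, stood at 63.4, 55.0 and 59.7 CPM and at 165, 136 and 138 CPM in HCC1806, and it rose by 1.30 (SE 0.111, edgeR adjusted p = 5.161e-06). In MDA-MB-468 it stood at 40.2, 34.4 and 36.5 CPM and at 59.7, 51.9 and 60.6 CPM, and it rose by 0.63 (SE 0.110, edgeR adjusted p = 0.0216). The latter call was lost without sgNTA replicate 1 (0.70), 2 (0.58) or 3 (0.62), and without MDA-MB-468 sgPACT-2 replicate 1 (0.60) or 3 (0.59), where the edgeR adjusted p reached 0.203. NFKB1, the precursor of p50, stood at 43.4, 37.8 and 37.7 CPM and at 71.6, 52.0 and 55.5 CPM in HCC1806, and it rose by 0.59 (SE 0.123, edgeR adjusted p = 0.0179). Its call was lost without sgC1 replicate 2 (0.56) or 3 (0.55), and with HCC1806 fitted alone (0.61, edgeR adjusted p = 0.141). In MDA-MB-468 its difference of 0.28 did not pass (edgeR adjusted p = 0.881), and with that line fitted alone it did (0.30, edgeR adjusted p = 0.0340).

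The class I transactivator and IRF1 did not pass in either line. NLRC5, the transactivator itself, stood at 63.5, 70.5 and 67.6 CPM and at 72.5, 80.5 and 69.6 CPM in HCC1806, with log2 differences of 0.14 (95% interval -0.10 to 0.39) there and 0.11 (95% interval -0.14 to 0.36) in MDA-MB-468. IRF1, an interferon-induced transcription factor, differed by 0.58 (SE 0.183, edgeR adjusted p = 0.114) in HCC1806 and by 0.57 (SE 0.182, edgeR adjusted p = 0.551) in MDA-MB-468. It passed in HCC1806 with the replicate block and without depleted replicate 1, and in MDA-MB-468 with the block and with the line fitted alone. NLRC5 and IRF1 were named here after their values had been seen.

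**Figure D4:**
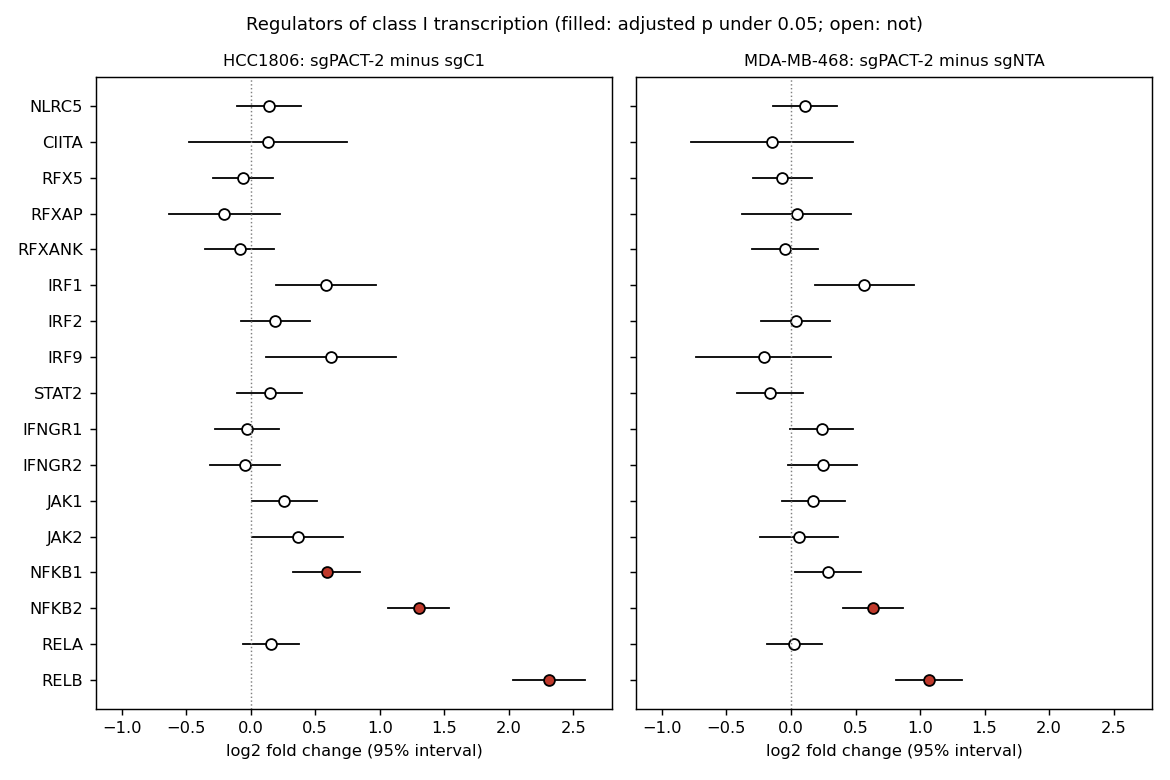
Log2 fold change with 95% interval (edgeR, PACT-depleted against control guide) of the regulators of class I transcription, HCC1806 and MDA-MB-468 side by side. RELB and NFKB2 stand to the right of 0 in both lines, at 2.31 and 1.30 in HCC1806 and at 1.07 and 0.63 in MDA-MB-468, while NLRC5 lies near 0 in each.

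The pattern of the members over the 12 libraries, centred within each line, was most like that of CHMP1B, a subunit of the ESCRT-III membrane remodelling complex, with a Pearson r of 0.941 to the mean of the members. ARSK, a lysosomal arylsulfatase, had 0.935, TDRKH, a Tudor protein of the piRNA pathway, 0.925, MARC2 (ENSG00000117791, listed under a date in place of its name) 0.925 and C11orf54 0.920. These were the highest of the 12984 genes that averaged 50 counts or more within both lines. All share the libraries and their depth, and each of the 5 genes was uncalled in both depletion contrasts.

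Several counts may hold reads of other genes, since the strand setting of the counting is not given in the sources used here. Of the 50-base windows of the main transcript, 80.2% in TAP2 also occur in AL669918.1, an overlapping gene model on the same strand that had 0 to 7 counts in the table, and how reads that fall in both were counted is not given. For TAP1, 15.2% of windows are shared, mostly with PSMB8-AS1 on the opposite strand, which had 65 to 241 counts. In HLA-B 21% are shared, mostly with the pseudogene AL671883.2 at 16 to 27 counts, in HLA-C 6.79% and in HLA-E 5.76%, while B2M, TAPBP, PSMB8 and PSMB9 share 0 of theirs. PSMB8 and PSMB9 overlap each other on opposite strands, and the gene models of HLA-B and HLA-C overlap on the same strand by 35 exon bases. The HLA alleles of each line differ from the reference genome to an extent not analysed here, so the levels of HLA-B and HLA-C are uncertain between the lines.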

How the data were processed

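RNA of 12 libraries was depleted of rRNA and made into libraries with a NEBNext Ultra II RNA kit, per the labels' protocols. The authors deposited unnormalized read counts, 1 value for each Ensembl gene and library. Trimmomatic 0.36, STAR 2.5.2b and featureCounts of Subread 1.5.2 with GRCh38 are named in the submitters' processing notes; the strand setting and annotation release are not given in the sources used here. Places and transcript lengths came from GENCODE 29.

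Genes were kept by filterByExpr on the 4 groups, scaled by TMM and fitted with edgeR 4.0.16 (R 4.3.3; glmQLFit and glmQLFTest, two-sided, 1 coefficient per group). The Benjamini-Hochberg adjustment covered all 27029 tested genes, and a gene was called at an adjusted p under 0.05. The biological coefficient of variation was 0.171. Intervals are 95% and come from the moderated degrees of freedom. CPM per kilobase used the longest principal transcript. Promoters came from the RefSeq table. Figures were drawn with matplotlib 3.10.9 in Python 3.11.15. The code of the fit was run on simulated counts with known changes. Their spread was equal in all groups and smaller than that of these libraries, so the run does not show how many changes would be found here.

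By rule, the genes named were PRKRA, the members, of each list the called genes (up to 4 per direction and line) or, with none, the gene of smallest adjusted p, and the 5 genes most like the members (log2 CPM, prior count 2). MR1, HLA-F, PDIA3, CALR, CANX, PSMB6, PSMB7 and POMP fall outside this rule. Their results in alternative fits were named after they had been seen. NLRC5, IRF1 and the 4 genes of the chromosome 6 neighbourhood fall outside it as well. The members and lists were chosen with earlier results of these data known. Alternatives changed the tool (DESeq2 1.42.0), the scaling (RLE factors, or library size only), the filter (none, or a mean of 50 counts), the model (each line alone, or a block on replicate number) and the threshold (adjusted p under 0.01), or left out each library. Leaving out libraries for the ratios was added after seeing the data. Same-numbered control and depleted libraries deviated together (correlations of 0.536, 0.372 and 0.150 in HCC1806 and 0.219, 0.106 and 0.220 in MDA-MB-468). The numbers were taken to pair them in the block and in the differences by replicate number only, and the main fit used no pairing. The pairing rests on the data, since the labels state no shared day or culture. HCC1806 control 2 correlated more with depleted 3 (0.429) than with depleted 2. Some genes of the lists enter the counts and medians only, and their own results are not reported here.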

Additional observations from a re-analysis of the deposited data

Results flagged for a closer look

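The effect of depletion on PRKRA, the targeted gene, differed between the lines. The log2 difference of the effects (MDA-MB-468 minus HCC1806) was 0.87 (edgeR interaction test, adjusted p = 0.0198), from a fall of 1.07 in HCC1806 and a difference of -0.20 in MDA-MB-468. Leaving out 1 library gave values from 0.82 to 0.94, and the adjusted p from edgeR then ran from 0.00472 to 0.0931. The call was lost without HCC1806 sgC1 replicate 2 (0.83), HCC1806 sgPACT-2 replicate 2 (0.87), any of the MDA-MB-468 sgNTA replicates (0.82, 0.89 and 0.91), and MDA-MB-468 sgPACT-2 replicate 1 (0.86) or 3 (0.82).

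RELB, the NF-kappaB subunit, rose in both lines but by different amounts. The log2 difference of the effects was -1.24 (edgeR interaction test, adjusted p = 0.00674), and RELB had started from a higher level in MDA-MB-468 controls (23.6 ± 3.13 CPM, SD, n = 3) than in HCC1806 controls (7.70 ± 0.396 CPM). It stayed past the threshold without any 1 library, at -1.34 to -1.13.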

How the results depend on the processing

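Over the single-gene results of the members, 172 of 180 values in HCC1806, 164 of 180 in MDA-MB-468, 156 of 171 in the interaction and 149 of 162 between controls kept direction and side of the threshold. Some of these could hardly change. The alternative at an adjusted p under 0.01 uses the main fit, so members uncalled in it stay the same. For depletion in either line, fits without a library of the other line keep all libraries compared. With the replicate block, which pairs same-numbered libraries, 1 member passed in HCC1806 (B2M), and 1947, 102 and 271 genes were called in HCC1806, in MDA-MB-468 and in the interaction; HLA-B in MDA-MB-468 stayed uncalled. Calls over all genes, in the same order, were 1245, 113 and 178 with DESeq2 (in it, 101 higher and 12 lower in MDA-MB-468, and 71 higher and 107 lower in the interaction, against 46 and 0, and 6 and 27), 1351, 143 and 275 without a filter, and 160, 22 and 9 at an adjusted p under 0.01. Fitted alone, the lines gave 74 and 323 calls, and 1 member passed in MDA-MB-468. Between controls 13022 genes passed with a filter at a mean of 50. Leaving out 1 library gave 301 to 1792, 19 to 98 and 9 to 168 calls over all genes and 0 to 2 members in HCC1806; each highest count of genes came without HCC1806 sgPACT-2 replicate 1, and the lowest without HCC1806 sgC1 replicate 1, MDA-MB-468 sgPACT-2 replicate 3 and MDA-MB-468 sgPACT-2 replicate 1. The cause of these shifts was not tested.

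Signs turned as follows. With library size only, HLA-E in MDA-MB-468 was 0.0195, B2M there 0.0447, TAPBP 0.0211 in HCC1806, -0.0293 in the interaction and -0.0840 between controls, PSMB8 0.0407 in HCC1806 and -0.0539 in the interaction, and PSMB9 -0.0517 in the interaction. B2M in MDA-MB-468 was also 0.0002252 with DESeq2, 0.0002283 with RLE factors, 0.003238 with the mean filter and 0.01173 fitted alone, and TAPBP between controls was -0.14 with the mean filter. HLA-C passed between controls with library size only (-0.37) and with the mean filter (-0.43), and HLA-E did not without a filter (-0.24). Leaving out 1 library turned signs in the interaction for HLA-B (-0.237 to 0.0687), TAP1 (-0.137 to 0.0119), TAPBP (-0.0157 to 0.127), PSMB8 (-0.0676 to 0.152) and PSMB9 (-0.0912 to 0.226), in MDA-MB-468 for B2M (-0.0353 to 0.0482) and PSMB8 (-0.139 to 0.0198), and in HCC1806 for PSMB8 (-0.202 to 0.0180) and PSMB9 (-0.0904 to 0.227). Members had at least 297 counts in every library, so none was limited to a few reads.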

Other observations

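The neighbourhood of the members on chromosome 6 held no larger share of called genes than all tested genes did. Of 224 other tested genes that start between 28 and 34 Mb (GRCh38), 2 rose and 2 fell in HCC1806, which is 1.79% against 2.49% of all tested genes. In MDA-MB-468 0 passed, against 0.17% of all tested genes, and the medians were -0.00 and -0.04. The 4 genes are given as single genes, named after their values had been seen, and no alternative was run for them. TNF, the cytokine gene at chr6:31575567-31578336, stood at 0.208, 0.492 and 0.127 CPM with sgC1 and at 3.77, 2.17 and 1.14 CPM with sgPACT-2 in HCC1806. All depleted libraries lay above all controls, and TNF rose by 3.08 on the log2 scale (SE 0.582, edgeR adjusted p = 0.0101), from very few reads. In MDA-MB-468 its difference of 0.71 did not pass, and the groups overlapped.

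TRIM26, a ubiquitin ligase gene at chr6:30184455-30213427, rose by 0.41 (SE 0.104, edgeR adjusted p = 0.0436) in HCC1806, from 47.1 ± 0.884 to 62.8 ± 6.65 CPM (SD, n = 3). AGPAT1, an acyltransferase of phospholipid synthesis at chr6:32168212-32178096, fell by 0.48 (SE 0.113, edgeR adjusted p = 0.0321). NRM, which encodes the nuclear membrane protein nurim at chr6:30688047-30691420, fell by 0.53 (SE 0.132, edgeR adjusted p = 0.0429). In MDA-MB-468 these 3 genes differed by -0.05, -0.06 and -0.11, and the groups overlapped for each.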
